A study of Mus musculus with 15 samples.

Results

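Sterol and fatty acid synthesis genes were followed in 4T1 cells, a mouse mammary carcinoma line. The set held 32 of the 40402 genes in the deposited count table, taken by symbol: 17 enzymes of the sterol pathway, 6 genes of its transcriptional control and 9 enzymes of fatty acid synthesis, elongation and desaturation. Cells with the genotype label WT were left untreated or received BLA (blackberry extract), BLU (blueberry extract), BLA-A (gold nanoparticles made with the blackberry extract) or BLU-A (gold nanoparticles made with the blueberry extract). All 5 groups grew in RPMI1640 medium with fetal bovine serum, a source of lipoprotein cholesterol, and the treatments were added the day after seeding. The time from treatment to harvest and the dose are not given in the labels, and none of the groups analysed here received the solvent or plain gold particles. 4T1 is a single established line, so the groups carry no genetic variation between animals.

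Cells make cholesterol from acetyl-CoA through mevalonate, squalene and lanosterol, and make fatty acids from acetyl-CoA and malonyl-CoA. Both pathways are under the sterol regulatory element binding proteins (SREBPs), transcription factors that are made as membrane proteins of the endoplasmic reticulum. When membrane sterol is low, SCAP carries them to the Golgi for cleavage, and when sterol is high, the INSIG proteins hold SCAP back. SREBP-2, encoded by Srebf2, acts mainly on the sterol genes and SREBP-1, encoded by Srebf1, mainly on the fatty acid genes. Tumour cells often run both pathways at high levels to build membranes.

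Each condition has 3 labelled replicates, but their counts differed by less than sampling noise. The chi-square per degree of freedom between the 3 columns of a condition was 0.0951 to 0.475 over genes averaging 10 or more counts. The columns of a condition were therefore averaged and counted as 1 library, giving 5 libraries of 25613778 to 26956442 counts. A fold change below compares 2 libraries, with no replicate behind it, and a gene was counted as past the threshold at a log2 fold change above 1 or below -1. Levels are CPM, counts relative to library size, scaled by the trimmed mean of M-values (TMM), and fold changes are on the log2(CPM + 0.5) scale, which understates the change of low genes. Each condition also has its own dates in the labels' batch field, so date and treatment cannot be told apart. The epithelial markers were present in every library, with a summed level of 753 CPM in BLA to 1318 CPM in BLA-A for the 6 genes, all over 1 CPM throughout. Of the fibroblast markers, Lum was at 0 counts and Col1a1, Col1a2 and Dcn did not exceed 1.80 CPM, while Pdgfra was at 86.0 to 102 CPM. The 5 leukocyte markers summed to 8.75 to 11.9 CPM and the 3 endothelial markers to 1.77 to 4.06 CPM. In bulk RNA a smaller share of cells of one type and less RNA per cell cannot be told apart.

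The stretches before the start of 4 genes, chosen by hand, are printed as examples. The SREBPs bind the sterol regulatory element (SRE), often beside a CCAAT box bound by NF-Y and a GC box bound by Sp1. The sequences come from the RefSeq promoter table, start 250 bases before the RefSeq start, were located by exact match on GRCm39 and were shortened where an annotated exon of the gene begins. Capitals mark matches to TCACNCCA (an SRE) or to CCAAT, on either strand. Hmgcs1 and Srebf2 hold both, while Mvk and Fasn hold CCAAT and no SRE match. In Fasn the letters of 2 CCAAT matches on opposite strands overlap.
Hmgcs1, chr13:120151637-120151886, + strand: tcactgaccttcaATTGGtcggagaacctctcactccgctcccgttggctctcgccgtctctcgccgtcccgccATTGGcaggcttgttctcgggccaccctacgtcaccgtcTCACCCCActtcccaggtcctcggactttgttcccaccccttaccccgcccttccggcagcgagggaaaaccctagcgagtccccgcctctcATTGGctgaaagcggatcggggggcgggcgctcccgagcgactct
Srebf2, chr15:82031220-82031381, + strand: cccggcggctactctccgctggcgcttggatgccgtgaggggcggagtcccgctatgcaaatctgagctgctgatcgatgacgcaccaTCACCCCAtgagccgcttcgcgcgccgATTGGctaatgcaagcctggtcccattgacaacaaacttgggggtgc
Mvk, chr5:114582080-114582266, + strand: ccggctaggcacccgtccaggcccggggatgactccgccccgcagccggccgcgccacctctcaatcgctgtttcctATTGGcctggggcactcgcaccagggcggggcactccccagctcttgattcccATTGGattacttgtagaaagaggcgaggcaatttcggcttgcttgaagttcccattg
Fasn, chr11:120715403-120715623, - strand: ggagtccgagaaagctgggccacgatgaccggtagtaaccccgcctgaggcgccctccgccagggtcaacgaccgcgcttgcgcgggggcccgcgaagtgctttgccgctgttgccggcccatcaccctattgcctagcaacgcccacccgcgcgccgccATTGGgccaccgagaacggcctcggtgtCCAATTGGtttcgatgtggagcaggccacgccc

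The table gave 33 windows, from 250 bases before to 50 after a start, for 25 of the 32 genes. Fdps, Fdft1, Sqle, Stard4, Scd1, Scd2 and Fads1 had no entry. The SRE letters TCACNCCA stood in 3 of the 33 windows (Hmgcs1, Msmo1 and Srebf2), or 9.09%, and in 4.36% of the 32851 windows of all genes. CCAAT stood in 21 windows of these genes (63.6%) and in 37.4% of all windows. GGGCGG, the GC box, stood in 24 (72.7%) and in 35.7% of all, and CACGTG, an E-box, in 7 (21.2%) and in 7.15% of all. Both strands were searched, the motifs do not share letters except by chance overlap, and a match is a description of the letters only.

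In untreated cells the desaturase Scd2 had the highest level per length, 528 CPM per kb of canonical transcript. Insig1 followed at 115, Fdps at 104, Msmo1 at 102 and Sqle at 96.1 CPM per kb. The lowest were 3 enzymes of the mevalonate steps, Mvk at 2.96, Mvd at 4.40 and Idi1 at 4.91 CPM per kb. Reads in introns were counted too, while the length is that of the spliced transcript. This order, and the size of the ratios in CPM per kb below, may therefore reflect intron content as well. The choice of length scales a ratio alike in all libraries. All 32 genes passed the filter of 1 CPM in at least 1 library, and all had a mean of at least 5 CPM. The lowest count of any of them in a library was 140. Together they took 0.762% of all counts in the untreated library (Wilson 95% interval 0.759% to 0.766%), 0.524% in BLA (0.521% to 0.527%), 0.611% in BLU (0.608% to 0.614%), 0.963% in BLA-A (0.959% to 0.967%) and 0.684% in BLU-A (0.681% to 0.687%). The intervals do not overlap, and they cover counting error only. Scd2 alone held 76708 of the 196512 counts of the set in untreated cells, so these sums lean on few genes. Fasn had 19196 counts in untreated cells and 47988 in BLA-A, where the set had 246728.

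**Figure D1:**
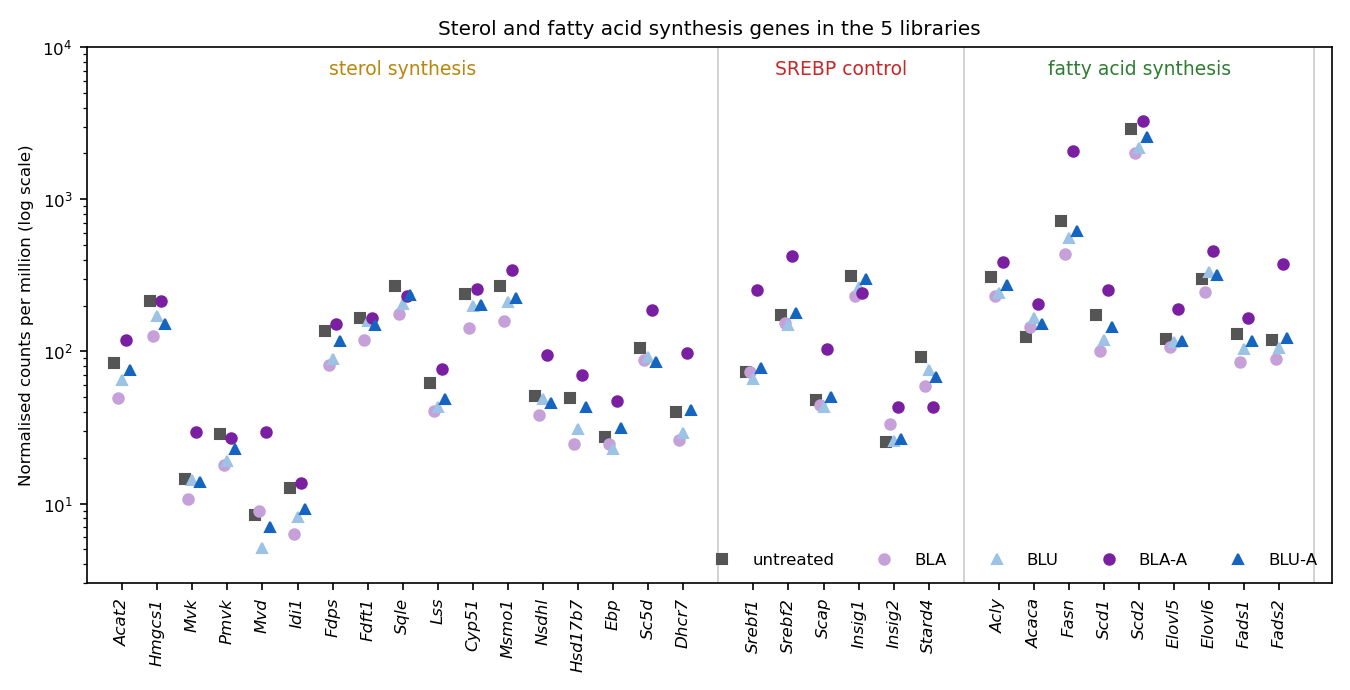
Level of each of the 32 genes in the 5 libraries, in normalised CPM on a log axis, with 1 point per library and the genes grouped by role. BLA-A (dark circles) stands highest for most genes, most clearly for Fasn at 2070.1 CPM, and lowest for Stard4 at 42.8 CPM.

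With TMM scaling, BLA-A was the only treatment with any of these genes past the threshold against untreated cells, though Hsd17b7 lay at -0.99 in BLA and passed there with other scalings. The fatty acid synthase gene Fasn, the desaturase gene Fads2, both SREBP genes, Scap, Mvd and Dhcr7 were higher, and Stard4 was lower. This made 8 of 32 genes, where 20.9% of all 17647 genes tested were past the threshold. By direction, 7 of 32 (21.9%) were higher where 8.54% of all genes were and 8.51% of the genes of at least 5 CPM, and 1 of 32 was lower where 12.4% of all genes were. By the lower limit of 0.5 on the log2 scale, 17 of 32 (53.1%) were higher where 23.4% of all genes were. The median log2 fold change of the 32 genes was 0.52, and that of all genes tested was -0.01. With scaling by total counts the median of the 32 was 0.33 and that of all genes -0.18.

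Among the control genes, both SREBP genes and their escort were higher in BLA-A. Srebf1, which encodes SREBP-1, was at 73.6 CPM in untreated cells, 73.0 with BLA, 65.6 with BLU, 254 with BLA-A and 78.3 with BLU-A. Srebf2, which encodes SREBP-2, was at 172 CPM in untreated cells, 154 with BLA, 149 with BLU, 424 with BLA-A and 179 with BLU-A. Scap, the escort of both, was at 47.6 CPM untreated, 44.4 with BLA, 43.2 with BLU, 104 with BLA-A and 50.4 with BLU-A. All 3 genes stood apart in the BLA-A library alone, by 1.78, 1.30 and 1.12 on the log2 scale against untreated cells, and lay between -0.20 and 0.09 in the other treatments. Srebf1 overlaps Rai1, of up to 7861 counts in a library, and Scap overlaps Ptpn23, of up to 4577 counts, each on the opposite strand. Since the authors merged both mates of a pair before counting by strand, reads of such partners cannot be told apart.

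The genes that hold SREBPs back or carry sterol had a different order of libraries. Insig1, which retains the SCAP and SREBP complex and is itself an SREBP target, was at 314 CPM untreated, 231 with BLA, 266 with BLU, 243 with BLA-A and 298 with BLU-A. Its relative Insig2, which is not driven by SREBPs in the same way, was at 25.3 CPM untreated, 33.3 with BLA, 25.9 with BLU, 43.2 with BLA-A and 26.6 with BLU-A. Stard4, a carrier of cholesterol between membranes, was at 91.7 CPM untreated, 58.8 with BLA, 75.6 with BLU, 42.8 with BLA-A and 67.6 with BLU-A. Insig1 was highest in the untreated library and Stard4 was highest there and lowest in BLA-A, with a log2 fold change of -1.09 and a 95% counting interval of -1.21 to -0.99. The ratio of Insig1 to Insig2 in CPM per kb was 12.6 in untreated cells, 7.05 with BLA, 10.5 with BLU, 5.73 with BLA-A and 11.4 with BLU-A.

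The first enzymes of fatty acid synthesis differed among themselves. Acly, which splits citrate to acetyl-CoA, was at 309 CPM untreated, 231 with BLA, 241 with BLU, 389 with BLA-A and 274 with BLU-A. Acaca, which makes malonyl-CoA, was at 125 CPM untreated, 144 with BLA, 166 with BLU, 203 with BLA-A and 151 with BLU-A. Fasn, the synthase that builds palmitate, was at 720.3 CPM untreated, 434 with BLA, 559 with BLU, 2070.1 with BLA-A and 622 with BLU-A. Fasn was thus 2.87-fold higher in BLA-A than in untreated cells and 4.77-fold higher than in BLA. As measured, Acaca was lowest in untreated cells. Acaca spans 272002 bases, and taking off the trend on GC and gene length (described with the GC values) removed most of this outside BLA-A. Its log2 fold change against untreated cells went from 0.21 to -0.25 with BLA and from 0.41 to -0.02 with BLU. For BLU-A it went from 0.28 to 0.04, and for BLA-A from 0.70 to 0.66. The ratio that follows uses levels without this adjustment, per kb of spliced transcript though introns were counted. The ratio of Fasn to Acaca in CPM per kb was 5.09 in untreated cells, 2.65 with BLA, 2.97 with BLU, 8.98 with BLA-A and 3.62 with BLU-A. Acaca overlaps Tada2a, of up to 1148 counts in a library, on the opposite strand.

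For each of the 4 desaturase genes, BLA-A was the highest library and BLA the lowest. Scd2, which makes monounsaturated from saturated chains, was at 2878 CPM untreated, 2016 with BLA, 2172 with BLU, 3282 with BLA-A and 2564 with BLU-A. Its close relative Scd1 was at 175 CPM untreated, 101 with BLA, 118 with BLU, 251 with BLA-A and 145 with BLU-A. Reads of these similar genes may be split between them, and the ratio of Scd2 to Scd1 in CPM per kb ran from 12.0 in BLA-A to 18.4 in BLA. Fads1 and Fads2 encode the desaturases of polyunsaturated fatty acids. Fads1 was at 131 CPM untreated, 85.8 with BLA, 103 with BLU, 165 with BLA-A and 117 with BLU-A. Fads2 was at 119 CPM untreated, 89.7 with BLA, 106 with BLU, 377 with BLA-A and 122 with BLU-A. The ratio of Fads1 to Fads2 in CPM per kb was 0.874 to 1.01 in the other 4 libraries and 0.401 in BLA-A. The elongase genes Elovl5 and Elovl6 were higher in BLA-A by 0.66 and 0.60 on the log2 scale. Elovl6, which lengthens palmitate, was at 299 CPM untreated and 454 CPM in BLA-A, and Elovl5, which acts on polyunsaturated chains, at 120.2 and 190.0 CPM.

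Among the 17 sterol enzymes, 2 were past the threshold in BLA-A. Mvd, mevalonate diphosphate decarboxylase, was at 8.44 CPM untreated, 8.88 with BLA, 5.08 with BLU, 29.6 with BLA-A and 6.98 with BLU-A. Dhcr7, which makes cholesterol in the last reduction, was at 40.0 CPM untreated, 26.0 with BLA, 29.1 with BLU, 96.9 with BLA-A and 41.4 with BLU-A. Both were highest in BLA-A, by 1.75 (95% counting interval 1.59 to 2.04) and 1.26 (1.17 to 1.38) on the log2 scale. Mvk, mevalonate kinase, lay just inside the threshold, at 14.6 CPM untreated, 10.8 with BLA, 14.4 with BLU, 29.4 with BLA-A and 13.9 with BLU-A, a log2 fold change of 0.99.

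Hmgcs1 and several enzymes of the same route were not higher in BLA-A. Of the 3 genes with an SRE match in their window, Srebf2 and Msmo1 were higher in BLA-A, by 1.30 and 0.36, and Hmgcs1 was not. Hmgcs1, which forms HMG-CoA, was at 215 CPM untreated, 125 with BLA, 172 with BLU, 213 with BLA-A and 152 with BLU-A. Sqle, squalene epoxidase, a rate-controlling step, was at 269.7 CPM untreated, 175 with BLA, 205 with BLU, 230.0 with BLA-A and 235 with BLU-A. Fdft1, squalene synthase, was at 165 CPM untreated, 118 with BLA, 159 with BLU, 165 with BLA-A and 149 with BLU-A. For all 3 the BLA-A level was at or below the untreated level and the BLA level was the lowest of the 5. Pmvk, the kinase after Mvk, was likewise lower in BLA-A than untreated, with 28.5 CPM untreated, 18.1 in BLA and 26.9 in BLA-A. Fdft1 overlaps Ctsb, of up to 12427 counts, and Sqle overlaps Washc5, of up to 4206 counts, on the opposite strand.

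The other sterol enzymes lay between these extremes. Nsdhl (a sterol dehydrogenase), Sc5d (a sterol desaturase) and Ebp (a sterol isomerase) were higher in BLA-A by 0.88, 0.83 and 0.76 on the log2 scale. Acat2, which joins acetyl-CoA units, Hsd17b7, a sterol ketone reductase, and Msmo1, a methylsterol oxidase, differed by 0.52, 0.50 and 0.36. Lss (lanosterol synthase), Fdps (farnesyl diphosphate synthase), Cyp51 (lanosterol demethylase) and Idi1 (isopentenyl diphosphate isomerase) differed by 0.30, 0.15, 0.11 and 0.11. The median of the 17 was 0.36, beside 0.94 for the 6 control genes and 0.60 for the 9 fatty acid genes. With scaling by total counts the median of the 17 was 0.17, with 10 of them above 0 in place of 13. Acat2 overlaps Tcp1, of up to 18793 counts in a library, and Cyp51 overlaps Akap9, of up to 7057 counts.

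**Figure D2:**
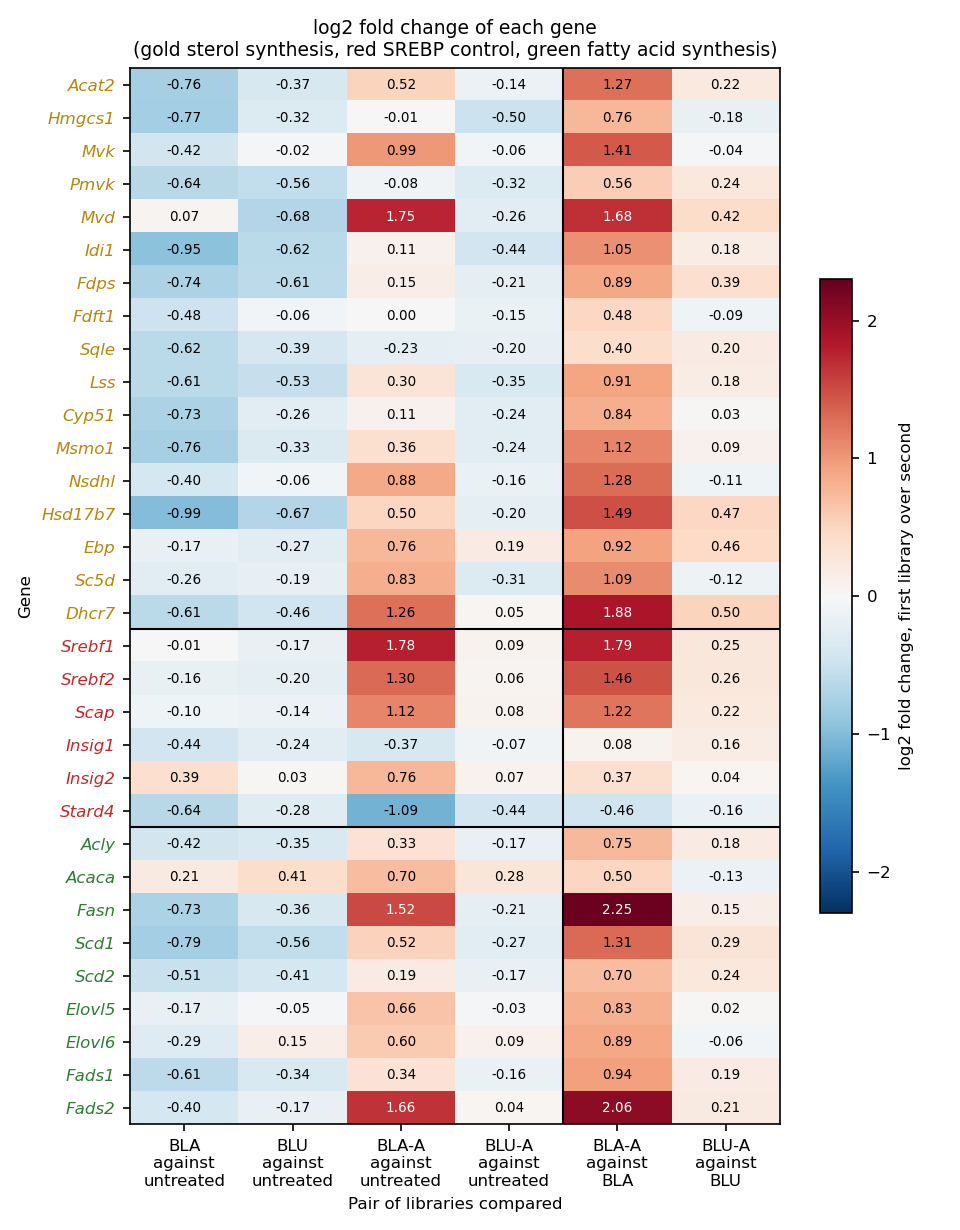
log2 fold change of each gene (rows) for 6 pairs of libraries (columns), with the value in each cell, blue where the first library is lower and red where it is higher. The BLA column is blue for 29 of 32 genes, where the median of all genes tested was -0.01. The BLA-A column holds the 8 genes past 1, and the BLU-A column lies between -0.50 and 0.28.

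The blackberry extract itself went with lower levels of most of the set. No gene was past the threshold in BLA, where 16.5% of all genes were, but 16 of 32 (50.0%) were lower by over 0.5 on the log2 scale and none was higher by that much, where 21.5% and 21.2% of all genes were. Of the genes of at least 5 CPM, 14.5% were lower by that much. Of the 17 sterol enzymes, 11 were among those 16, with a median of -0.62 beside -0.42 for the fatty acid genes and -0.13 for the control genes. Hsd17b7 and Idi1 were lowest, with log2 fold changes of -0.99 and -0.95. Hsd17b7 was at 49.4 CPM untreated, 24.6 with BLA, 30.8 with BLU, 69.9 with BLA-A and 42.9 with BLU-A. Idi1 was at 12.7 CPM untreated, 6.35 with BLA, 8.13 with BLU, 13.7 with BLA-A and 9.24 with BLU-A. For both genes the libraries stood in the same order, BLA lowest, then BLU, BLU-A, untreated and BLA-A. Only Insig2, Acaca and Mvd were above their untreated level, by 0.39, 0.21 and 0.07. After the adjustment for GC and gene length these genes stood at 0.19, -0.25 and 0.28.

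With the blueberry extract 29 of 32 genes were below their untreated level, where the median log2 fold change of all genes tested was -0.01. None of the 32 genes was past the threshold in BLU, where 10.3% of all genes were. By the limit of 0.5, 7 of 32 (21.9%) were lower where 14.6% of all genes were, namely Mvd, Hsd17b7, Idi1, Fdps, Pmvk, Lss and Scd1, with log2 fold changes from -0.68 for Mvd to -0.53 for Lss. With a trend on GC content and gene length taken off (the adjustment is described with the GC values), 3 of 32 (Fdps, Acly and Hsd17b7) were lower by that much, where 5.08% of all adjusted genes were. The median of the 32 genes was -0.30. Set against BLU directly, BLA had a median log2 fold change of -0.22, with none of 32 genes past the threshold where 10.6% of all genes were. Mvd alone differed by over 0.5, where 28.1% of all genes did, and in the other direction, being higher in BLA by 0.75 (95% counting interval 0.50 to 1.12), at 8.88 against 5.08 CPM.

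BLU-A was closest to the untreated cells. None of the 32 genes was past the threshold, where 7.85% of all genes were, and Hmgcs1 alone reached the limit of 0.5, at -0.50, where 24.9% of all genes passed it. The median was -0.16. These 4 treatments are all set against the 1 untreated library, so an error in that library enters each of them.

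The nanoparticles were next compared with the extract they were made with, which does not use the untreated library. BLA-A exceeded BLA by over 1 on the log2 scale in 15 of 32 genes (46.9%), where 11.5% of all genes and 12.1% of those of at least 5 CPM were higher by that much and 24.5% of all passed in either direction, and no member was lower by over 1, where 12.9% of all genes were. The largest differences were in Fasn (2.25), Fads2 (2.06), Dhcr7 (1.88), Srebf1 (1.79) and Mvd (1.68). The other 10 were Acat2, Mvk, Idi1, Msmo1, Nsdhl, Hsd17b7, Sc5d, Srebf2, Scap and Scd1, from 1.05 for Idi1 to 1.49 for Hsd17b7. Stard4 alone was lower, by -0.46, and Insig1 was nearly level at 0.08. The members nearest the limit were Idi1 and Sc5d inside the count, at 1.05 and 1.09, and Fads1 and Ebp outside it, at 0.94 and 0.92.

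Several of these genes are best seen library by library. Acat2 was at 83.3 CPM untreated, 49.1 with BLA, 64.4 with BLU, 119 with BLA-A and 75.3 with BLU-A. Msmo1 was at 267 CPM untreated, 157 with BLA, 212 with BLU, 343 with BLA-A and 226 with BLU-A. Both were lowest in BLA and highest in BLA-A, with the untreated library second. Nsdhl was at 50.9 CPM untreated, 38.4 with BLA, 48.9 with BLU, 94.0 with BLA-A and 45.5 with BLU-A. Sc5d was at 105 CPM untreated, 87.8 with BLA, 92.2 with BLU, 188 with BLA-A and 84.7 with BLU-A. For Sc5d the BLU-A library was the lowest of the 5, below BLA by a small margin, while BLA-A was again the highest.

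The blueberry pair showed little of this. BLU-A against BLU had none of 32 genes past the threshold, where 6.76% of all genes were, and a median of 0.18 beside 0.93 for BLA-A against BLA. The largest value was that of Dhcr7, 0.50, followed by Hsd17b7 at 0.47, Ebp at 0.46 and Mvd at 0.42. Fasn was higher by 0.15 and Fads2 by 0.21. Whether the nanoparticle difference itself differs between the berries could not be tested with 1 library of each kind. Dhcr7 alone differed by over 0.5 in the blueberry pair, and it was higher with the nanoparticles of both berries. No other gene could therefore have differences over 0.5 of opposite sign in the 2 berries. Between the nanoparticles, BLA-A exceeded BLU-A by over 1 in 10 of 32 genes (31.3%), where 8.68% of all genes were higher by that much and 19.2% passed in either direction. Mvd (2.01), Fasn (1.74), Srebf1 (1.69) and Fads2 (1.62) led, followed by Srebf2, Dhcr7, Sc5d, Mvk, Nsdhl and Scap between 1.24 and 1.04.

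**Figure D3:**
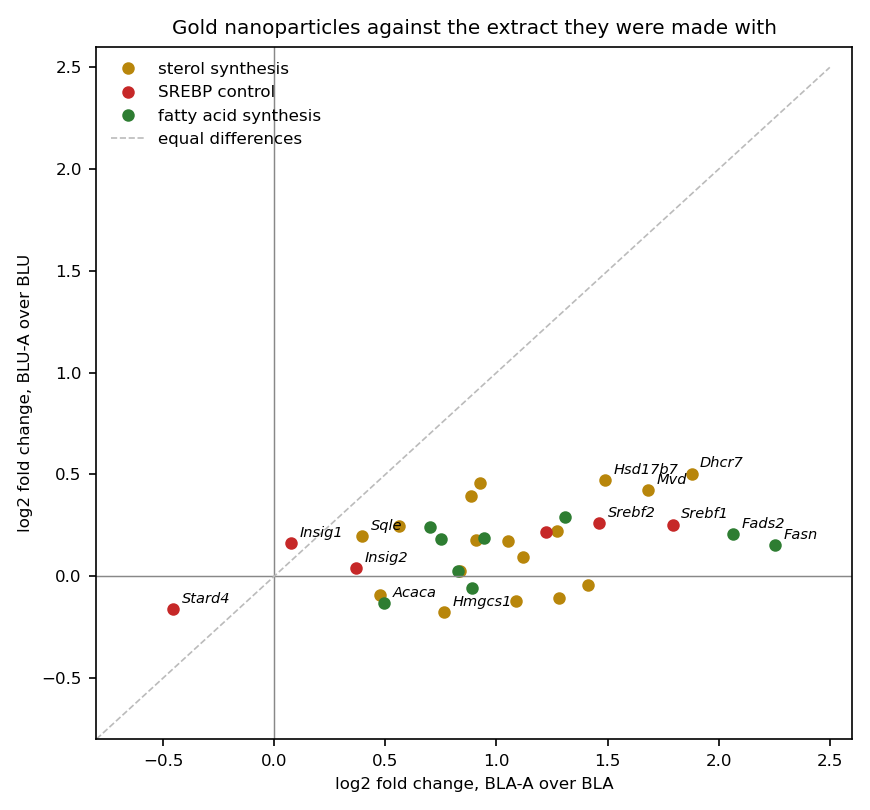
Each point is 1 gene, with the log2 fold change of BLA-A over BLA on the horizontal axis and of BLU-A over BLU on the vertical axis, and a dashed line where the 2 would be equal. Fasn lies farthest right at 2.25 with 0.15 on the vertical axis, and Stard4 lies to the left at -0.46.

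Libraries were also taken as the units of a test. The 4 treated libraries together were compared with the untreated one, and the 2 nanoparticle libraries with the 2 extract libraries with the berry as a term, with the quasi-likelihood test of edgeR and p-values adjusted over 17647 genes by the Benjamini-Hochberg method. For treated against untreated cells 0 of 32 genes had an adjusted p under 0.05 and 0 an unadjusted one, where 0.0227% and 2.73% of all genes had. The untreated side of that test is 1 library, and its spread holds the differences among the 4 treatments, whose medians over the set ran from -0.50 in BLA to 0.52 in BLA-A, so a lack of calls there says nothing about any single treatment. For nanoparticles against extracts 0 of 32 passed after adjustment, where 0.0283% of all genes did, and 13 of 32 had an unadjusted p under 0.05, each of them higher with the nanoparticles, where 4.99% of all genes were higher at that level. DESeq2 called 0 of 32 in each test. Of all genes it called 17 for treated against untreated cells, 22 for nanoparticles against extracts and 11 for blackberry against blueberry. The smallest p of the set belonged to Dhcr7, with a log2 difference of 1.26 (SE 0.387, edgeR adjusted p = 0.756, and 0.0522 to 0.787 over all settings with libraries as units). Fasn differed by 1.26 (SE 0.425, edgeR adjusted p = 0.756). It passed with edgeR without the filter on low counts (adjusted p = 0.00256) and with scaling by total counts (adjusted p = 0.0322), and the range over all settings was 0.00256 to 0.787. Fads2 passed with edgeR without the filter (adjusted p = 0.0274). Hsd17b7, Fads2, Srebf1 and Srebf2 differed by 1.05, 1.20, 1.09 and 0.92. In these means BLA-A carries most of the difference, since the blueberry pair differed by 0.15 for Fasn and 0.25 for Srebf1.

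For blackberry against blueberry, with the form as a term, 0 of 32 genes passed after adjustment, where 0.0397% of all genes did, and 2 had an unadjusted p under 0.05, where 2.59% of all genes were higher at that level. Mvd differed by 1.5025 (SE 0.455, edgeR adjusted p = 0.994, and 0.170 to 0.996 over the same settings), higher with blackberry. Srebf1 differed by 0.98 (SE 0.377, edgeR adjusted p = 0.994), and its libraries overlapped.

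The size of the fold changes moved with transcript composition across all genes, and these values stand beside the results above. Over 11109 genes of at least 5 CPM with an annotated length and GC content, the BLA-A fold change against untreated cells was higher with higher transcript GC content (Spearman 0.28), with a median of 0.45 in the sixth of genes richest in GC and -0.09 in the poorest sixth. The 7 genes of the set that were higher by over 1 in BLA-A had transcripts of 54.2% to 59.4% GC, and the other 25 had a median of 48.5%. The fold changes of BLA and BLU were lower with higher GC content (Spearman -0.10 and -0.20) and higher with gene length (Spearman 0.43 and 0.47), with medians of -0.31 and -0.25 in the sixth of shortest genes and 0.39 and 0.36 in the sixth of longest.

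A cubic trend on GC content and log10 gene length was then taken off each fold change, an adjustment chosen after seeing the data. In BLA-A 5 genes stayed past the threshold, Srebf1 at 1.38, Fads2 at 1.39, Mvd at 1.34, Fasn at 1.17 and Dhcr7 at 1.05, 5 of 32 where 5.67% of all adjusted genes were higher by that much. Srebf2, Scap and Stard4 no longer passed, at 0.89, 0.67 and -0.95, so that none was lower by over 1, where 6.09% of all adjusted genes were. For BLA-A against BLA 15 genes passed, with Fasn at 1.83, where 7.91% of all adjusted genes were higher. Idi1 and Scap were no longer among them, at 0.99 and 0.94, and Elovl5 and Elovl6 had joined, at 1.07 and 1.24. The median of the set in BLA was -0.49 after the adjustment and -0.50 before it.

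**Figure D4:**
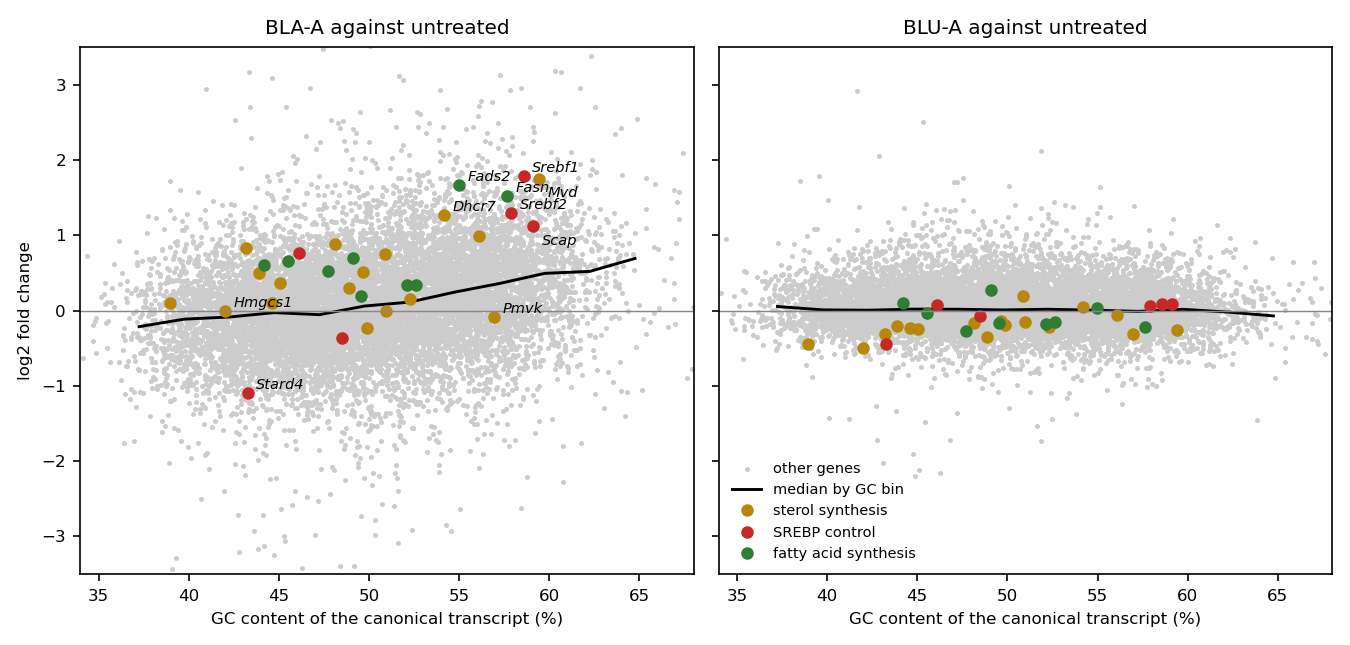
log2 fold change of BLA-A (left) and BLU-A (right) over untreated against the GC content of the transcript in percent, for 11109 genes (grey), their median by GC bin (black line) and the 32 genes (coloured by role). In BLA-A the median climbs with GC and the 7 genes higher by over 1 lie at 54.2% to 59.4% GC, above the line, while in BLU-A the line is flat.

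**Figure D5:**
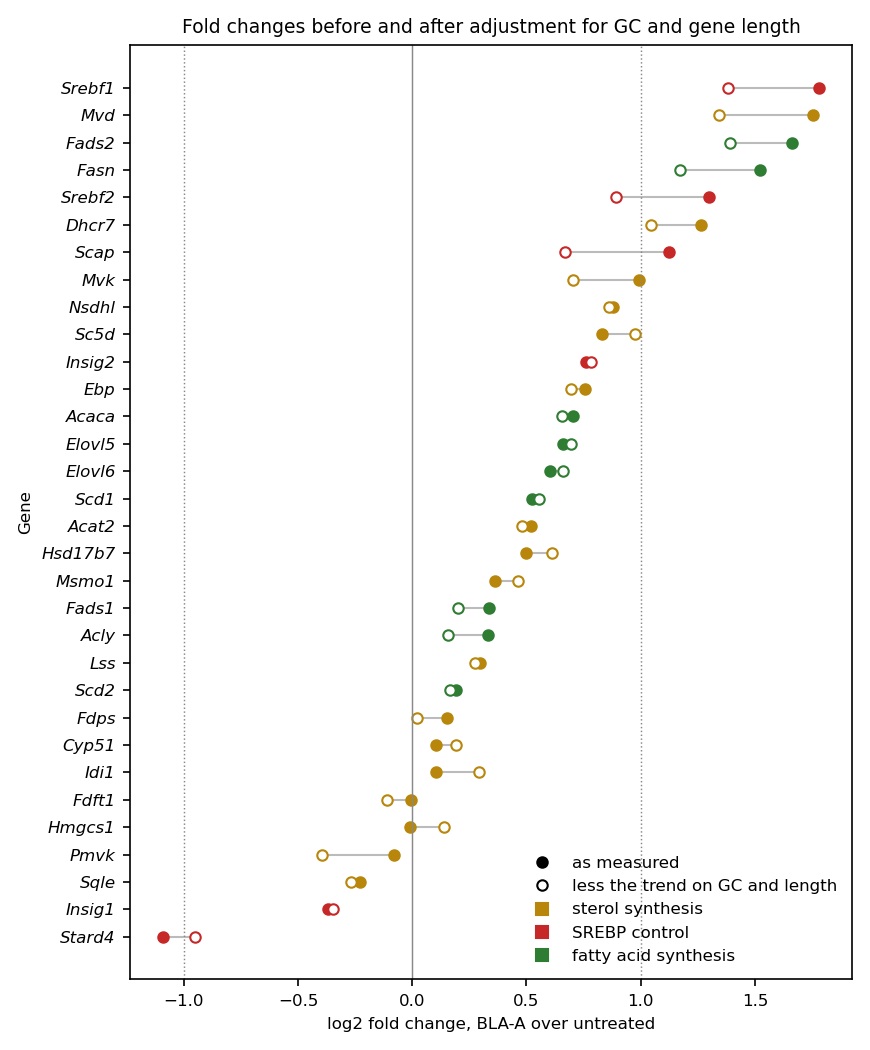
log2 fold change of BLA-A over untreated for each gene as measured (filled) and less the trend on GC and gene length (open), sorted by the measured value, with dotted lines at -1 and 1. Srebf1, Mvd, Fads2, Fasn and Dhcr7 stay to the right of 1, and Srebf2, Scap and Stard4 move inside the lines.

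Other genes of the same pathways, from lists chosen with earlier results known, are given next, mostly by their counts. Of all genes tested, 8.54% were higher by over 1 in BLA-A. Lists with 1 such gene among 8, 11 or 17 lie close to that share. Among further sterol genes, Tm7sf2, a sterol reductase, was higher in BLA-A by 1.54. Of 8 genes that process SREBPs or turn over their partners, only Syvn1, a ubiquitin ligase of the endoplasmic reticulum, passed, at 21.6 CPM untreated and 107 CPM in BLA-A, a difference of 2.28. Both proteases that cleave SREBPs stayed near their untreated level, with log2 fold changes of -0.21 for Mbtps1 and 0.25 for Mbtps2.

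Of 6 genes of sterol efflux and the liver X receptors, 2 were higher by over 1 in BLA-A, where 8.54% of all genes were. They were the sterol exporter gene Abcg1, by 2.43, and Lpcat3, which remodels phospholipids, by 1.42. Abcg1 was the one gene of these lists past the threshold in BLU-A in the upward direction, by 1.16. Of 10 genes of sterol uptake and storage, Lrp1, a lipoprotein receptor, and Npc1, which moves cholesterol out of lysosomes, were higher in BLA-A by 1.44 and 1.41, and Vldlr was higher in BLA by 1.06. Of 17 further fatty acid synthesis genes, Elovl1, an elongase of very long chains, was at 14.6 CPM untreated, 12.7 with BLA, 13.1 with BLU, 81.7 with BLA-A and 14.5 with BLU-A. The 3 genes of this list that were lower by over 1 in any treatment, Mlxipl, Pnpla3 and Elovl4, had at most 1.43 CPM in any library. Of 11 glycerolipid genes, Agpat2, which makes phosphatidic acid, was higher in BLA-A by 1.19.

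Fatty acid oxidation, the opposing pathway, had 5 of 11 genes lower by over 1 in BLA-A, where 12.4% of all genes were, and none higher. Acadm and Acadl, which open the oxidation of medium and long chains, differed by -1.11 and -1.02, from 71.5 and 194 CPM untreated to 32.9 and 95.7 CPM in BLA-A. The other 3 were the regulators Ppargc1a, Pparg and Ppara, at low levels, which differed by -2.06, -1.36 and -1.22, from 5.89, 2.33 and 1.46 CPM untreated. The list holds these regulators beside the enzymes, and Pparg is not specific to oxidation. In BLA these 3 regulators were lower by over 1, where 8.54% of all genes were, and in BLU Ppara alone was, where 4.64% were. Cpt1a, which admits fatty acids to mitochondria, was higher in BLA-A by 0.64. The median of the 11 in BLA-A was -0.65, or -0.24 over the 8 genes of at least 5 CPM with the trend on GC and length taken off, and the medians of the other 6 lists were 0.02 to 0.49, beside -0.01 for all genes. With the trend on GC and length taken off, Agpat2 was at 0.71 and Acadl at -0.98, inside the threshold, while Syvn1, Abcg1 and Elovl1 stayed at 1.957, 2.24 and 2.25.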

How the data were processed

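RNA was measured by bulk sequencing after removal of ribosomal RNA. The authors merged both mates of each pair, aligned them as single reads with STAR to GRCm39 and counted strand-specific reads in OmicsBox over each gene with its introns. The deposited values are raw counts per gene for 40402 genes in 15 columns, without normalization. The labels' processing notes also name DESeq2 1.36.0. Other deposited tables hold only the authors' fold changes, p-values and enrichment scores and were not used.

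Columns of a condition with a chi-square per degree of freedom under 1.5 were averaged, rounded and used as 1 library. The labels' replicate numbers are the source of the pairing that was checked: over 30 pairs of same-numbered columns the mean correlation of deviations was -0.00111, so the numbers did not pair the columns. A minimum of 1 CPM in any 1 of the libraries left 17647 genes. Counts were scaled by TMM in edgeR 4.0.16, and fold changes were taken with a pseudocount of 0.5 CPM. With libraries as units, the quasi-likelihood test was used at an adjusted p of 0.05, with 3 residual degrees of freedom for treated against untreated cells and 1 for the other tests. P-values measure the spread between these libraries. In the tests with 1 degree of freedom that spread is the departure from additive effects of berry and form, and no condition has a replicate behind it. DESeq2 1.42.0, other scalings, filters, pseudocounts and single columns were alternatives. The GC and length trend was a robust cubic regression (statsmodels 0.14.6) and was tested on simulated data, as was the quasi-likelihood test. GC content, lengths and positions came from GENCODE M39 on GRCm39, and had values for 96.5% of genes of at least 5 CPM and 32 of 32 members. Computation ran under Python 3.11.15 (pandas 2.3.3, numpy 2.4.6) and R 4.3.3.

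The members and lists were chosen with earlier results of these data known. Values are given for each library for members past the threshold in any comparison and for those of largest and smallest change in each role, and other pathway genes are named when past the threshold or at an extreme. Some results of these lists are not reported here. Intervals are exact 95% intervals conditional on the summed counts, with a median half-width of 0.0738 on the log2 scale and a widest of 0.326, for Mvd. Reads carry no molecular identifiers, so intervals cover counting error only.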

Additional observations from a re-analysis of the deposited data

How the results depend on the processing

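The 33 calls of single genes kept their direction under all the settings run. All 33 stayed past the threshold with DESeq2 size factors, a pseudocount of 0.1 and in the 198 repeats without 1 column, 31 with a pseudocount of 2 and 25 each with scaling by total counts and with the adjustment for GC and length. Scaling by total counts moved the median of all genes to -0.18 for BLA-A against untreated, -0.22 against BLA and -0.25 against BLU-A, and left 6 genes past the threshold for BLA-A against BLU-A in place of 10. For BLA against untreated, 1 gene, Hsd17b7, passed with DESeq2 size factors, with scaling by total counts and with a pseudocount of 0.1, 0 to 1 without 1 column (1 without BLA replicate 3), and 2 in the 15-column fits. The adjustment left 5 genes for BLA-A against untreated in place of 8. With a limit of 0.5 the counts against untreated were 16 for BLA, 7 for BLU, 18 for BLA-A and 1 for BLU-A. Between treatments they were 26 for BLA-A against BLA, 1 for BLU-A against BLU, 1 for BLA against BLU and 22 for BLA-A against BLU-A. Shares of all genes at this limit are not given for BLA-A against BLA, BLU-A against BLU and BLA-A against BLU-A. The counts of those pairs therefore have no background beside them. For nanoparticles against extracts, edgeR called 2 genes without the filter on low counts (Fads2 and Fasn) and 1 with scaling by total counts (Fasn), and the cause was not tested.

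Treating the 15 columns as replicates called 30 of 32 genes for treated against untreated cells, 32 for nanoparticles against extracts and 30 for blackberry against blueberry, both with a replicate block and without it. Since the columns of a condition are 1 library, those fits measure the spread of reads and not of cultures. The share of all genes called by those fits is not given here, so these counts are no result about the set. The block changed none of these counts. The fits of the 4 treated libraries without 1 library have no residual degrees of freedom and were not run. Each condition rests on 1 library. Against untreated cells, counting intervals reached across the threshold for Mvk (0.83 to 1.20) and Stard4 (-1.21 to -0.99) in BLA-A, Idi1 (-1.27 to -0.73) and Hsd17b7 (-1.15 to -0.87) in BLA and Mvd (-1.05 to -0.42) in BLU, so depth does not settle their side of it.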

Other observations

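The genes whose pattern over the 5 libraries was most like the mean of the 17 sterol enzymes are given as a description. Each enzyme was scaled to its own mean and SD over the libraries, and 9733 other genes with a mean over 10 CPM were compared. The highest Pearson correlations were 1.00 for Gatad1, Ppp2r5d, Arpc1b, Slc16a1 and Ap1s1, over 5 points that share depth and scaling, and 514 genes were above 0.95. Slc16a1, which carries lactate and other monocarboxylates, was highest in BLA-A at 187 CPM and lowest in BLA at 97.9 CPM, with 147 CPM in untreated cells.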
